A study of Mus musculus with 8 samples.

Results

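The collagen genes described here are those whose symbol has the form Col, a number, a and a number, leaving out types IV and VI, with at least 10 counts summed over 8 quadriceps libraries. They number 32 of the 35494 gene symbols in the deposited count table, and all 32 collagen symbols of this form passed the count minimum. Bulk RNA sequencing was done on wild-type (WT) male C57BL/6 mice that entered the study at 8 weeks of age. The scMC38 group (4 mice) carried MC38 cells, a mouse colorectal cancer line, injected under the skin, and the control group (4 mice) received PBS. Muscle was taken at day 28 and each library came from a different mouse. The series title calls the wasting that this tumour brings mild.

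Collagens are the main fibres and scaffolds of the extracellular matrix, secreted as chains that wind around each other into a stiff helix. In skeletal muscle, fibroblasts and fibro-adipogenic progenitors make most of the fibrillar types I, III and V. These fill the layers of connective tissue around fibres and bundles and carry force to the tendon. Types II, IX, X and XI are known from cartilage, and type I is also the main protein of bone.

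The 32 genes fall into classes by the known structure of their chains. There are 11 fibrillar genes, 9 FACIT genes (collagens that sit on the surface of fibrils), 2 multiplexins (Col15a1 and Col18a1, next to basement membranes), 4 transmembrane genes, 3 short chain network genes and 3 others. Expression is given as CPM, the counts of a gene relative to all counts of its library, after scaling by TMM, a method that sets libraries to a common level.

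In scMC38 muscle Col3a1 and Col5a3 fell, by 3.90-fold and 2.78-fold, and were below every control in all 4 libraries. Over all tested genes 6.45% were below in this way. Both genes passed the edgeR test described below, but neither did when control 1, 2 or 3 was left out. Col1a1 and Col1a2, which encode type I collagen, were high in scMC38 3 and low in scMC38 2 and 4. The cartilage collagens Col2a1, Col9a2, Col9a3, Col10a1, Col11a1 and Col11a2 were above every control in scMC38 1 and scMC38 3. Col9a1, also of type IX, was not. Of all 32 members 8 were above in both libraries, against 19% of the 17162 symbols with at least 10 counts.

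Upstream sequence is shown for 4 members on which these results turn. Col3a1 and Col5a3 are the genes that passed the test, Col1a2 is the type I gene present in the sequence table, and Col10a1 was at 0 in every control. Each sequence is the 125 bases before the annotated start, from RefSeq promoters on GRCm38.p6, 5′ to 3′ on the strand of the gene. The build of the deposited counts, GRCm39, is a later one, so these positions serve to identify the sequences only. Col3a1 lies at chr1:45311413-45311537 on the plus strand and Col5a3 at chr9:20815068-20815192 on the minus strand. Col1a2 lies at chr6:4505493-4505617 and Col10a1 at chr10:34389856-34389980, both on the plus strand. Capitals mark the CCAAT box (CCAAT), the TATA box (TATAAA) and the GC box (GGGCGG), each searched on both strands, and no marked motif overlaps another in these sequences.
Col3a1: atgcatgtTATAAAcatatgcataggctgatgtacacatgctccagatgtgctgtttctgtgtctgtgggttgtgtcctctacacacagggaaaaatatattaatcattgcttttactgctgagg
Col5a3: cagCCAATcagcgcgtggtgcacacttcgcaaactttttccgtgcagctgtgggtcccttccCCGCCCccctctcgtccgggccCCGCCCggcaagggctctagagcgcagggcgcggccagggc
Col1a2: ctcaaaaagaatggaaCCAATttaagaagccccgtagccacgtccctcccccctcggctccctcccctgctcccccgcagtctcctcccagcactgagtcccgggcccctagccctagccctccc
Col10a1: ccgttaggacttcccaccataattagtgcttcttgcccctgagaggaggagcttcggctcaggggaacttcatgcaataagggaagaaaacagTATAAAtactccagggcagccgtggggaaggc
The 2 genes that fell share none of the 3 motifs in this window. Col3a1 holds TATAAA from base 117 before the start, while Col5a3 holds CCAAT from base 122 and GGGCGG, on the opposite strand, from bases 63 and 41. Col1a2 holds CCAAT from base 109 and Col10a1 holds TATAAA from base 32. The table has a promoter for 24 of the 32 members. Of these, 6 hold CCAAT, 3 hold TATAAA and 12 hold GGGCGG, against 21.8%, 6.55% and 26.9% of all 32817 promoter windows of this length. The E-box (CACCTG) and AP-1 (TGANTCA, N any base) motifs, searched but not marked, were held by 1 and 0 members, against 8.82% and 3.6% of windows. A member counts if any of its windows holds the motif, and Col9a1 and Col18a1 have 2 windows each. A match is a run of letters and not a shown binding site.

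Before the comparison, 2 scMC38 libraries need a remark. Total counts ran from 50.5 to 62.1 M per library. Many markers of bone, cartilage and marrow, though not all, were high in scMC38 1 and scMC38 3. The summed level of 12 bone-forming cell markers was 16.5 to 37.0 CPM in controls, 62.9 CPM in scMC38 1 and 322 CPM in scMC38 3, against 8.78 and 12.0 CPM in scMC38 2 and 4. In scMC38 1 most of this sum is 1 gene, Ibsp, at 40.6 CPM. Of the 12 markers 8 were higher in scMC38 1 and 3 than in all other libraries, and 2 (Bglap2 and Mepe) were at 0 in every control. Dmp1, Alpl, Phex and Ifitm5 were not higher in this way. Alpl (7.19 CPM) and Phex (0.590 CPM) were below every control in scMC38 1. The 8 cartilage markers summed to 2.48 to 3.48 CPM in controls, to 15.4 and 33.1 CPM in scMC38 1 and 3, while scMC38 2 and 4 had 3.54 and 2.70 CPM. Of these 4 (Acan, Hapln1, Cnmd and Snorc) were higher in scMC38 1 and 3 than elsewhere, while Sox9, Matn1, Matn3 and Epyc were not. Matn1 and Snorc were at 0 in every control. Matn1 was also at 0 in scMC38 1 and stood at 0.456 CPM in scMC38 3. The 8 bone-resorbing cell markers summed to 50.7 and 602 CPM in scMC38 1 and 3 against 9.24 to 28.0 CPM in the other 6 libraries. Of these markers 6 were higher in scMC38 1 and 3 than in all others, while Acp5 and Calcr were not. Calcr (0.287 CPM) was below every control in scMC38 1. The 10 marrow progenitor and neutrophil markers summed to 466 and 4213 CPM in scMC38 1 and 3, and to 0.510 to 6.70 CPM in controls. In scMC38 2 and 4 they summed to 8.72 and 28.5 CPM, also above every control. In scMC38 4 the bone matrix gene Ibsp stood at 1.40 CPM, where controls reached at most 0.0600 CPM. Results are therefore given with and without scMC38 1 and 3. In bulk tissue, fewer cells of a type and less RNA per cell cannot be told apart.

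**Figure D1:**
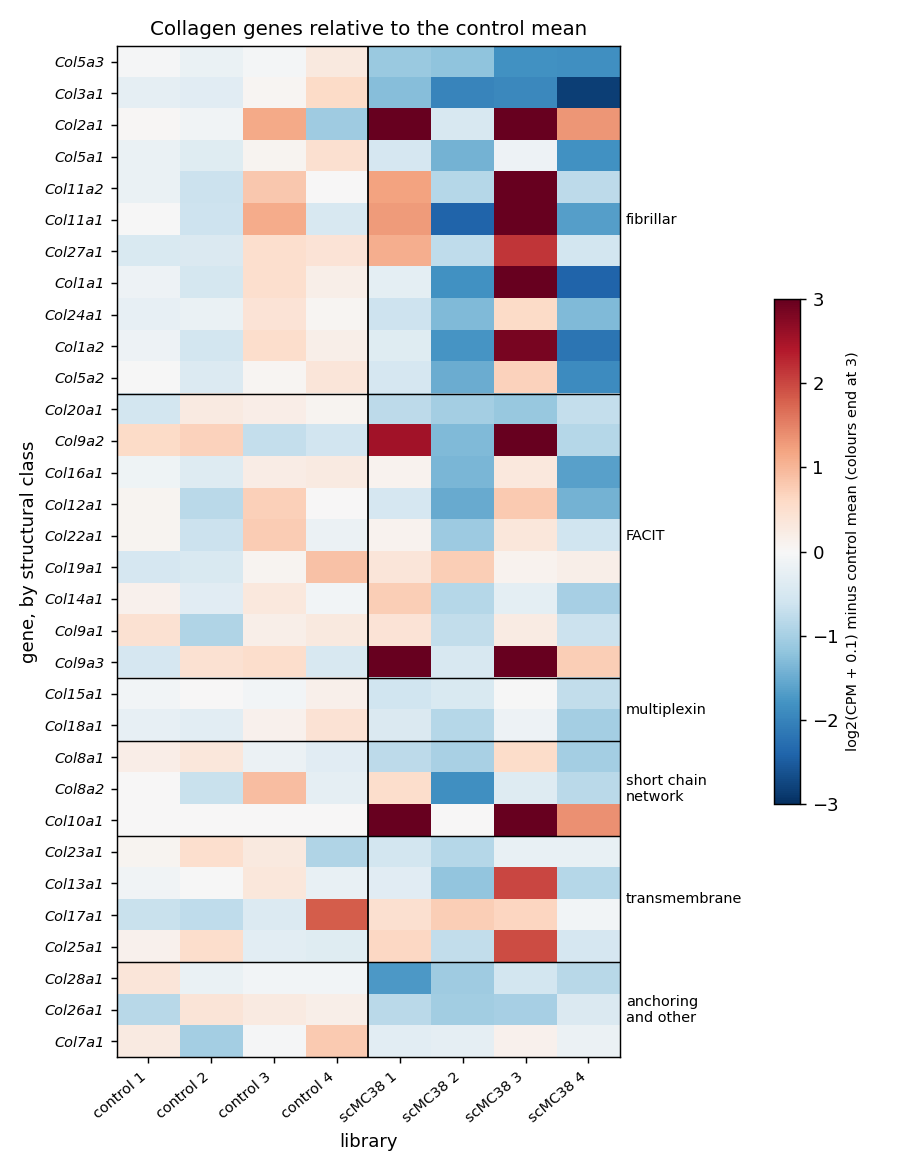
Each row is a collagen gene, grouped by structural class, and each column a library. Colour is log2(CPM + 0.1) minus the mean of the 4 controls, with colours ending at 3 in either direction. Col3a1 and Col5a3 are blue in all 4 scMC38 columns, most genes are blue in scMC38 2 and 4, and the cartilage genes and type I genes are red in scMC38 3.

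Levels in control muscle were compared per length, as CPM divided by kilobases of the longest protein-coding transcript in GENCODE M21. Col3a1 was first, at 47.9 ± 14.99 CPM per kb (SD, n = 4), followed by Col1a2 at 35.6 ± 11.1 and Col1a1 at 28.6 ± 8.75. The ranges of these 3 genes overlapped between mice. Within a library Col1a1 was the lowest of them in 4 of 4 controls, while Col3a1 was above Col1a2 in 3 of 4. Col15a1 came next at 8.43 ± 0.683 CPM per kb, below every value of Col1a1 and above every value of Col5a3 (6.38 ± 0.929). The type V genes Col5a3, Col5a1 (5.24 ± 1.40) and Col5a2 (4.97 ± 1.07) overlapped between mice, though Col5a3 was above both others in 4 of 4 controls. Col18a1, Col22a1 and Col14a1 lay between 1.83 and 2.76 CPM per kb on average, and the other 22 members were below 1 CPM per kb. Col10a1 had 0 counts in all 4 controls, which allows up to 0.0502 to 0.0600 CPM per library (3 counts; counting error only).

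Differences between scMC38 and control were tested with edgeR's quasi-likelihood F test, with Benjamini-Hochberg adjustment over 14112 tested genes and a threshold of 0.05. Of the 32 members 29 entered the test. Col9a3, Col10a1 and Col25a1 did not reach the count minimum of the filter in enough libraries. Col3a1 and Col5a3 were called lower and no member was called higher, so 2 of 29 passed. Over all tested genes 0.468% were called lower and 0.737% higher, 1.2% in all. A negative log2 fold change was seen in 19 of the 29 and in 49.8% of all genes, and the median was -0.42 for the members against 0.00 for all genes.

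Col3a1 encodes type III collagen, a fibre that is mixed with type I in stretchable tissues. It stood at 213, 202, 267 and 384 CPM in control 1 to 4 and at 105, 64.8, 67.2 and 36.1 CPM in scMC38 1 to 4. Every scMC38 library was below every control, including those with and without the bone and cartilage markers. The mean went from 266 ± 83.4 to 68.4 ± 28.4 CPM (SD, n = 4), which is 3.90-fold lower (log2 fold change -1.96, SE 0.33, edgeR adjusted p = 0.0352). The call was kept with each other scaling, filter and tool tried, and lost in 7 of the 8 fits that leave out 1 library (edgeR adjusted p from 0.0558 to 0.102), all but the fit without scMC38 1.

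Col5a3 encodes a chain of type V collagen, which regulates the width of fibrils. Its level was 38.1, 33.9, 37.1 and 47.1 CPM in control 1 to 4 and 17.7, 16.7, 10.9 and 10.8 CPM in scMC38 1 to 4. The groups did not overlap and the spread within each was small. The mean went from 39.1 ± 5.68 to 14.0 ± 3.70 CPM (SD, n = 4), 2.78-fold lower (log2 fold change -1.48, SE 0.19, edgeR adjusted p = 0.0201). Its call was lost without control 1, 2 or 3 (edgeR adjusted p = 0.0865, 0.0525 and 0.0590). Without scMC38 1 and 3 the log2 fold change was still -1.48, with an adjusted p of 0.0518, and Col3a1 stood at -2.38 (adjusted p = 0.0578). Control 1 and 2 had the most mitochondrial RNA, at 24.3% and 29.7% of counts against 14.4% to 18.9% elsewhere. Without them edgeR called no gene (0% of 14737), and the log2 fold changes were -2.26 for Col3a1 (adjusted p = 0.216) and -1.60 for Col5a3 (adjusted p = 0.210).

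**Figure D2:**
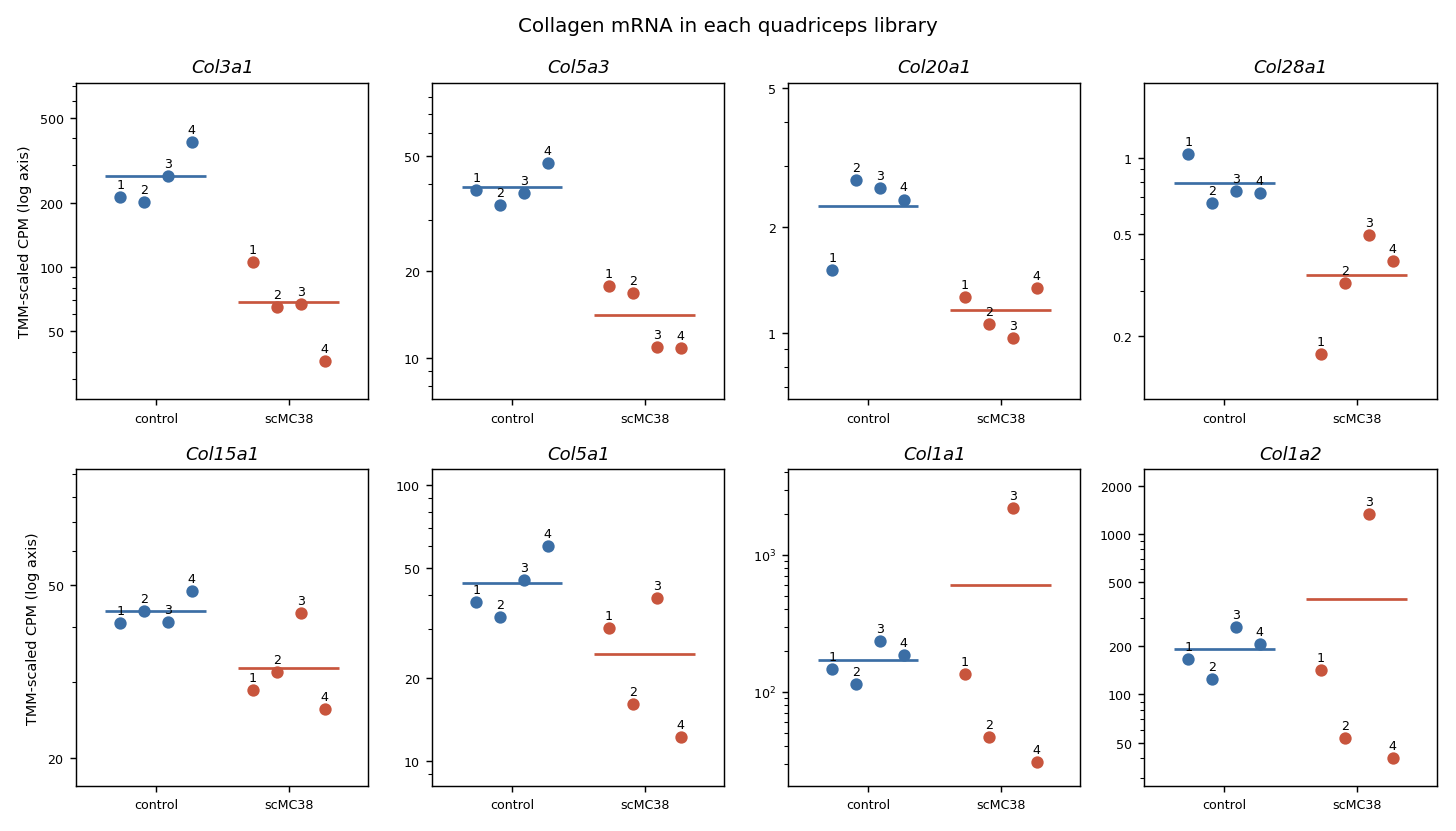
Each point is a library, numbered by replicate, for 8 collagen genes, with TMM-scaled CPM on a log axis. Bars are group means (n = 4). The groups are apart for Col3a1, Col5a3, Col20a1 and Col28a1, and scMC38 3 stands alone for Col1a1 (2215 CPM) and Col1a2 (1329 CPM).

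Beside these genes, Col20a1 and Col28a1 were the other members with all 4 scMC38 libraries below all 4 controls. Over all tested genes 6.45% were below in this way. No member was above in all 4, against 6.82% of genes. Col20a1, a FACIT member, was at 1.51, 2.73, 2.60 and 2.40 CPM in control 1 to 4 and at 1.27, 1.06, 0.968 and 1.34 CPM in scMC38 1 to 4 (log2 fold change -0.995, SE 0.24, edgeR adjusted p = 0.0838). Col28a1, a collagen known from peripheral nerve, was at 1.04, 0.664, 0.740 and 0.728 CPM in controls and at 0.169, 0.322, 0.498 and 0.394 CPM in scMC38 (-1.19, SE 0.36, edgeR adjusted p = 0.121). Neither passed, though DESeq2 called both (adjusted p = 0.00444 and 0.0399), a tool that called 10.1% of all genes here. With Col28a1, Schwann cell markers also stood lower: 7 of 8 had a negative log2 fold change, none was called, and their summed level was 35.7 to 94.6 CPM in controls and 26.2 to 42.6 CPM in scMC38. Their part in the Col28a1 values was not tested.

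The partner chains of Col5a3 did not separate the groups. Col5a1, the chain common to most type V collagen, stood at 37.6, 33.2, 45.3 and 60.1 CPM in controls and 30.4, 16.1, 38.9 and 12.2 CPM in scMC38 1 to 4 (log2 fold change -0.85, SE 0.36, edgeR adjusted p = 0.223). The values in scMC38 1, 2 and 4 were below every control and that in scMC38 3 was among them. The ratio of Col5a3 to Col5a1 CPM was 0.785 to 1.02 in controls. It was 1.04 in scMC38 2 and 0.887 in scMC38 4, but 0.583 in scMC38 1 and 0.280 in scMC38 3. For Col5a2 (-0.47, SE 0.51, edgeR adjusted p = 0.627) scMC38 1, 2 and 4 were also below every control, but scMC38 3 was above every control, with 24.3 to 41.5 CPM in controls, 22.7 CPM in scMC38 1, 52.1 CPM in scMC38 3, and lower values, 11.5 and 8.67 CPM, in scMC38 2 and 4. Col5a2 is the next protein-coding gene to Col3a1 in the RefSeq annotation.

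Type I collagen is the main protein of tendon, bone and the muscle's own connective tissue. Col1a1 was at 146, 114, 234 and 185 CPM in control 1 to 4 and at 134, 46.6, 2215 and 30.9 CPM in scMC38 1 to 4. Thus scMC38 2 and 4 were below every control, scMC38 1 was among the controls and scMC38 3 far above them. The log2 fold change was 1.84 (SE 1.26, edgeR adjusted p = 0.429), -1.27 without scMC38 3 (adjusted p = 0.226) and -2.11 without scMC38 1 and 3 (SE 0.35, adjusted p = 0.0597). Col1a2 followed it: 166, 125, 264 and 207 CPM in controls, and 142, 53.7, 1329 and 40.3 CPM in scMC38. It had a log2 fold change of 1.04 (SE 1.04, edgeR adjusted p = 0.596), which was -2 without scMC38 1 and 3 (SE 0.33, adjusted p = 0.0600).

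The balance of type I and type III mRNA differed between libraries. The ratio of Col1a1 to Col1a2 CPM was 0.881 to 0.912 in controls, 0.944, 0.868 and 0.768 in scMC38 1, 2 and 4, and 1.67 in scMC38 3. The ratio of Col3a1 to Col1a1 CPM was 1.14 to 2.08 in controls, 1.39 and 1.17 in scMC38 2 and 4, 0.784 in scMC38 1 and 0.0303 in scMC38 3. In scMC38 2 and 4 this ratio lay within the control range while both genes were lower. In scMC38 3 Col3a1 was low while Col1a1 was high, and the bone-forming marker Bglap stood at 60.8 CPM there against at most 0.0185 CPM in controls. The part of bone RNA in the Col1a1 value was not tested.

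The 2 multiplexins, of which Col18a1 is the source of endostatin, had small differences. Col15a1 was at 41.0, 43.5, 41.3 and 48.6 CPM in control 1 to 4 and at 28.7, 31.6, 43.2 and 25.9 CPM in scMC38 1 to 4. Only scMC38 3 lay among the controls. The log2 fold change was -0.43 (SE 0.15, edgeR adjusted p = 0.162), and -0.60 without scMC38 3, where the gene was called (adjusted p = 0.0481). Col18a1 ranged from 12.2 to 20.4 CPM in controls and from 7.39 to 13.6 CPM in scMC38, and overlapped in scMC38 3 (-0.61, SE 0.23, edgeR adjusted p = 0.182).

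Cartilage collagens were high in the libraries that held cartilage markers. Col2a1, the main fibre of cartilage, was at 0.151, 0.129, 0.440 and 0.0182 CPM in control 1 to 4 and at 47.4, 0.0757, 30.1 and 0.512 CPM in scMC38 1 to 4. Its log2 fold change was 6.74 (SE 1.88, edgeR adjusted p = 0.111), although DESeq2 called it (adjusted p = 0.00118), and 0.69 without scMC38 1 and 3 (adjusted p = 0.763). Col10a1, a marker of growth plate cartilage that is turning into bone, had 192, 0, 604 and 8 counts in scMC38 1 to 4, or 3.24, 0, 8.60 and 0.158 CPM, and 0 counts in every control. Col9a3, a FACIT chain on cartilage fibrils, had 80, 1, 192 and 9 counts in scMC38 and 1 to 7 counts in controls. Acan, the large proteoglycan of cartilage, reached 4.00 CPM in scMC38 1 and 14.4 CPM in scMC38 3, with at most 0.0788 CPM elsewhere.

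The order of scMC38 1 and 3 was not the same for each of these genes. Col2a1 was higher in scMC38 1, while Col10a1, Col9a3 and the type XI genes were higher in scMC38 3. Col11a2 was at 1.77 to 5.04 CPM in controls, 6.63 CPM in scMC38 1 and 69.7 CPM in scMC38 3 (log2 fold change 2.72, SE 1.22, edgeR adjusted p = 0.249). Col11a1 was at 5.79 and 34.8 CPM in these libraries against 1.48 to 5.18 CPM in controls (1.98, SE 1.25, adjusted p = 0.391). In scMC38 2 and 4 both type XI genes were below every control. Col9a2 stood at 2.16 CPM in scMC38 1 and 5.30 CPM in scMC38 3, with 0.140 to 0.535 CPM in controls (2.52, SE 1.21, adjusted p = 0.271). With Col27a1 and Col25a1, 8 of the 32 members were above every control in both of these libraries, against 19% of the 17162 symbols with at least 10 counts. Col9a1, the remaining chain of type IX, did not show this, with 0.793 and 0.698 CPM against 0.258 to 0.820 CPM in controls.

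**Figure D3:**
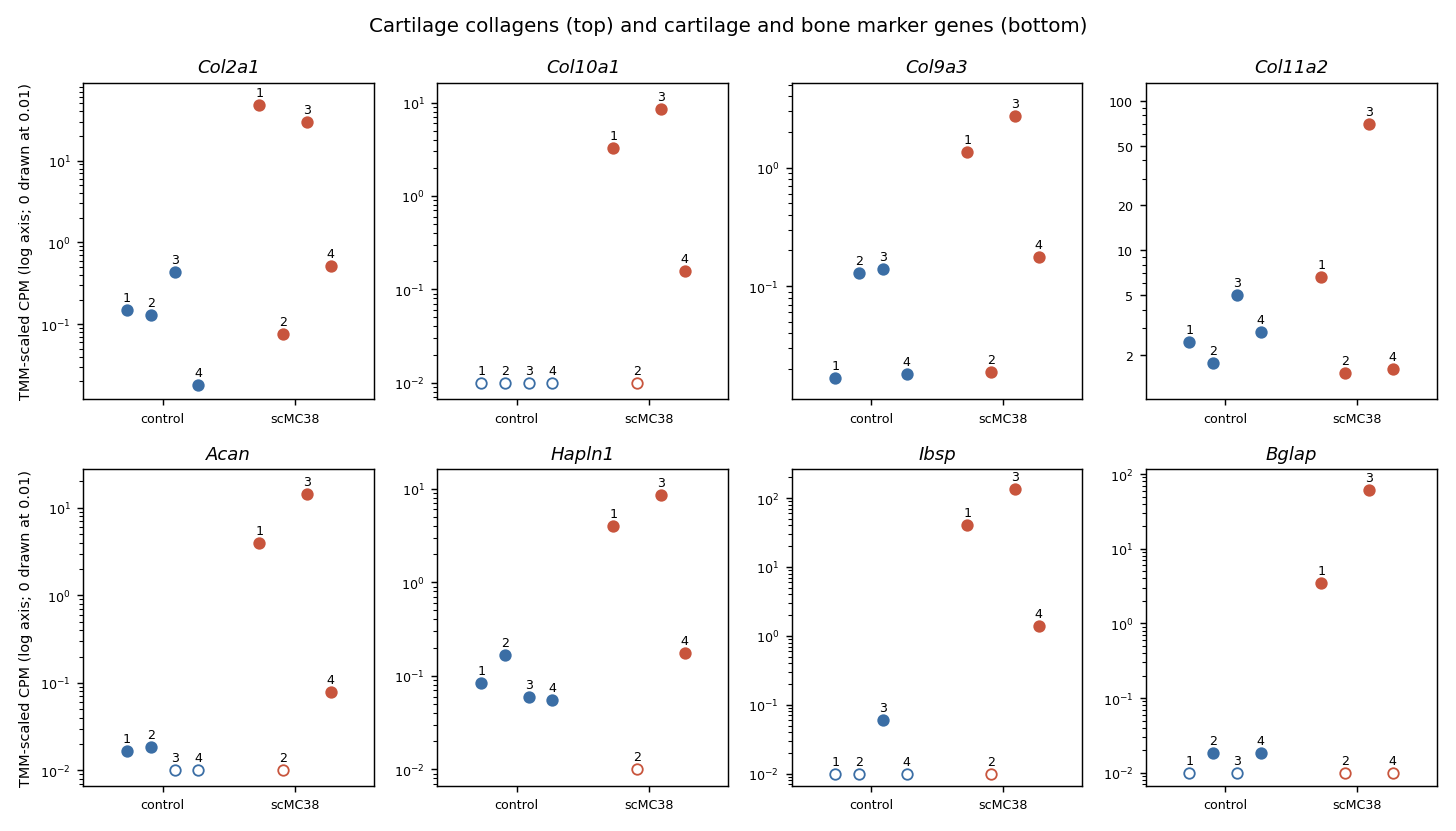
CPM of 4 cartilage collagens (top) and of cartilage (Acan, Hapln1) and bone (Ibsp, Bglap) marker genes (bottom) in each library, on a log axis. Open points are libraries with 0 counts, drawn at 0.01. scMC38 1 and 3 are the highest in all 8 panels, and Col10a1 is at 0 in all 4 controls and in scMC38 2.

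Counted library by library, the members split the scMC38 group. In scMC38 2, 24 of the 32 were below all 4 controls and 0 above, where 23.8% of the 17162 symbols were below and 23.6% above. In scMC38 4 it was 22 below and 3 above (27% and 22.5% of symbols). The 3 above were the cartilage collagens Col2a1, Col9a3 and Col10a1, with 26, 9 and 8 counts. They stood at 0.512, 0.177 and 0.158 CPM, where controls reached at most 0.440, 0.140 and 0 CPM. In scMC38 1, 11 were below and 9 above (22.9% and 28.5%), and in scMC38 3, 5 were below and 16 above (25.4% and 32.2%). In scMC38 2 and 4 together 22 members were below every control in both libraries, against 14.8% of symbols.

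Without scMC38 1 and 3, 27 of 29 tested members had a negative log2 fold change, and the median was -1.04 against -0.01 over 14368 tested genes, of which 51.7% were negative. None of the 29 was called by edgeR, while 0.271% of genes were called lower and 0.174% higher. An unadjusted p under 0.05 was seen for 19 of the 29, and for 2700 of the 14368 genes. The smallest adjusted p among members was 0.0512, for Col5a2. This alternative rests on 2 scMC38 mice, and DESeq2 was not run on it.

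**Figure D4:**
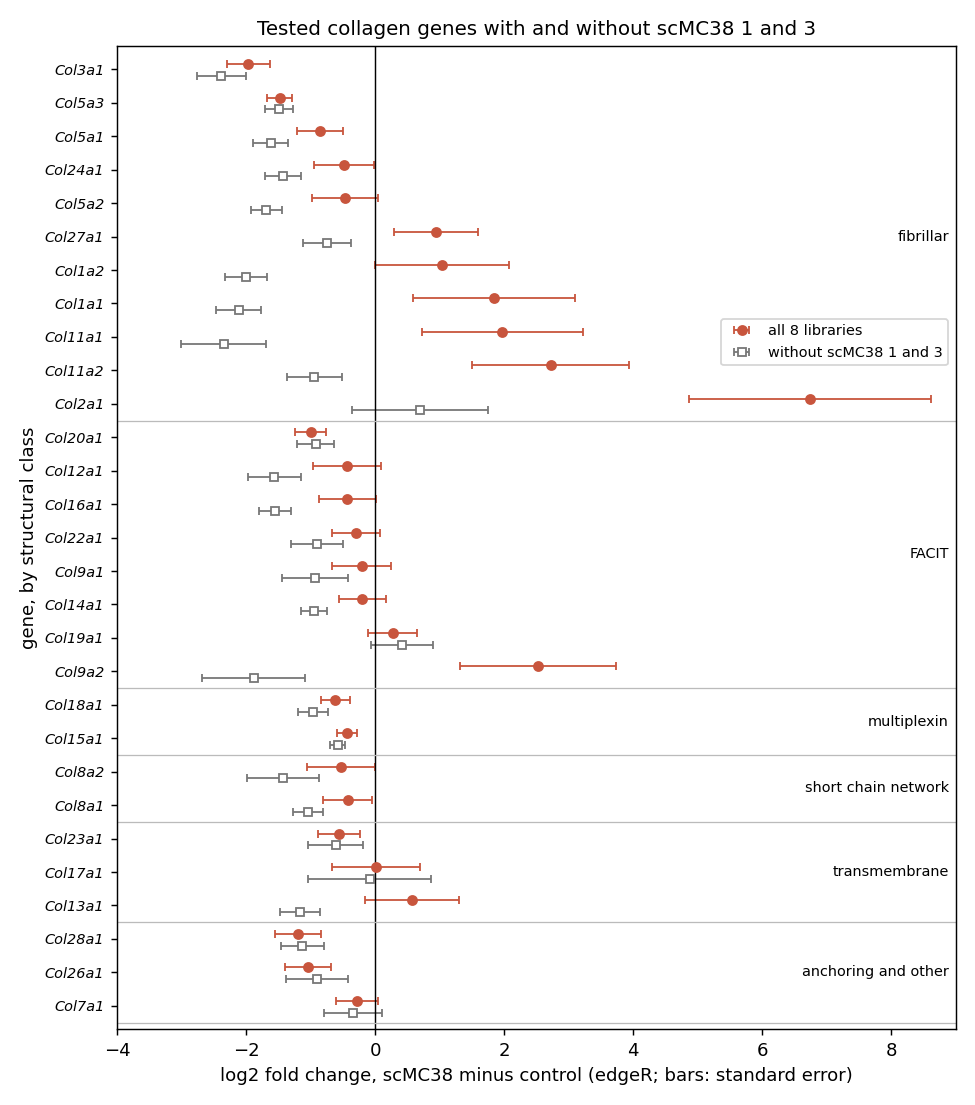
Log2 fold change of scMC38 minus control for the 29 tested members, by structural class, with all 8 libraries (filled) and without scMC38 1 and 3 (open). Bars are standard errors. Col3a1, Col5a3, Col20a1 and Col28a1 lie at similar values in both fits, while Col1a1, Col1a2, Col11a1, Col11a2, Col27a1, Col9a2, Col13a1 and Col17a1 go from positive to negative.

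The other members did not pass the test. Among FACIT genes, Col12a1 and Col14a1, which sit on type I fibrils of tendon and fascia, stood at -0.43 and -0.20, and Col16a1 at -0.43, with scMC38 2 and 4 below every control for all 3. Col22a1, a gene of the junction between muscle and tendon, ranged from 10.96 to 29.3 CPM in controls and from 8.04 to 21.8 CPM in scMC38 (-0.29, SE 0.37, edgeR adjusted p = 0.676). Col19a1 (0.27) and Col9a1 (-0.21) overlapped throughout. Of the network genes, Col8a1, a collagen of vessel walls, stood at -0.42 and Col8a2 at -0.53. Among transmembrane genes Col13a1, which helps to hold the neuromuscular junction, was at 4.22 CPM in scMC38 3 and at 0.378 to 0.759 CPM in the other scMC38 libraries, with controls from 0.819 to 1.26 CPM. Col23a1 stood at -0.56 and Col17a1, a collagen of skin epithelium, at 0.01, with control 4 at 2.06 CPM and the other 7 libraries from 0.258 to 0.908 CPM. The epidermis markers summed to 37.2 CPM in control 4 and to 1.99 to 3.97 CPM in those 7 libraries, and their part in the Col17a1 value was not tested. Col26a1 (-1.04, adjusted p = 0.158), Col24a1 (-0.48), Col27a1 (0.94) and Col7a1 (-0.28), which anchors epithelia, complete the list.

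The genes whose log2 CPM followed Col3a1 most closely over the 8 libraries, among 8117 tested genes that are no members and have a mean log2 CPM of at least 3, were Col6a3, Col6a1 and Col6a2 (Pearson r = 0.986, 0.986 and 0.985). These encode type VI collagen, a microfibril next to muscle fibres. For Col1a1 they were Sec11c, Tmed3 and Arsb (r = 0.981, 0.979 and 0.976), with scMC38 3 as the far point. Among members, Col5a3 had r = 0.96 with Col3a1 and -0.03 with Col1a1, and Col1a2 had r = 0.996 with Col1a1. The libraries share the group difference and the depth, so these are descriptions with no test.

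Collagen chains are hydroxylated, folded, cut, cross-linked and bound by receptors, and 7 lists of such genes were examined. Of 85 genes 80 were tested, and 1 was called higher and 1 lower, where 0.737% and 0.468% of all genes were. Loxl2, a lysyl oxidase that cross-links collagen, fell from 30.9, 28.7, 34.8 and 35.8 CPM in control 1 to 4 to 20.0, 12.1, 14.4 and 11.5 CPM in scMC38 1 to 4 (log2 fold change -1.16, SE 0.18, edgeR adjusted p = 0.0299). Tll1, a protease of the family that cuts the ends of procollagen, rose from 0.646 to 0.960 CPM in controls to between 2.16 and 3.10 CPM in scMC38 (1.61, SE 0.23, edgeR adjusted p = 0.0273). For both genes the groups did not overlap. Loxl2 kept its call in 1 of the 8 fits that leave out 1 library (without scMC38 1, adjusted p = 0.0179), and Tll1 in 1 (without scMC38 3, adjusted p = 0.0412).

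By list, hydroxylation and glycosylation had 0 of 14 called and a median of 0.09 (Colgalt1 0.27, adjusted p = 0.0824, and Plod1 -0.27, adjusted p = 0.0964). Folding and export had 0 of 13 and a median of 0.00 (Sec24d -0.51, Fkbp14 -0.31). Cleavage had 1 of 7 (Tll1) and a median of -0.38, and cross-linking 1 of 5 (Loxl2) and -0.24. Fibril assembly partners had 0 of 14, with 11 negative and a median of -0.54. Among these Kera, the proteoglycan keratocan, stood at -2.08 (SE 0.41, edgeR adjusted p = 0.0569) and Lum, lumican, at -0.82 (adjusted p = 0.126). Receptors had 0 of 9 and a median of -0.06 (Ddr2 -0.38, Itga10 1.61), and regulators 0 of 18 and 0.10 (Nfyb -0.23, Scx -0.50). Without scMC38 1 and 3, 59 of 80 were negative with a median of -0.34, and edgeR called 7 lower and 0 higher (0.271% and 0.174% of all genes): Lum (-1.37), Loxl2 (-1.44), Postn (-2.59), Aspn (-0.99), Bmp1 (-1.06), Sec24d (-0.91) and Creb3l1 (-1.06), with adjusted p from 0.0160 to 0.0492. Bmp1 cuts procollagen ends, Sec24d carries procollagen out of the endoplasmic reticulum and Creb3l1 is a transcription factor of collagen genes in bone.

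**Figure D5:**
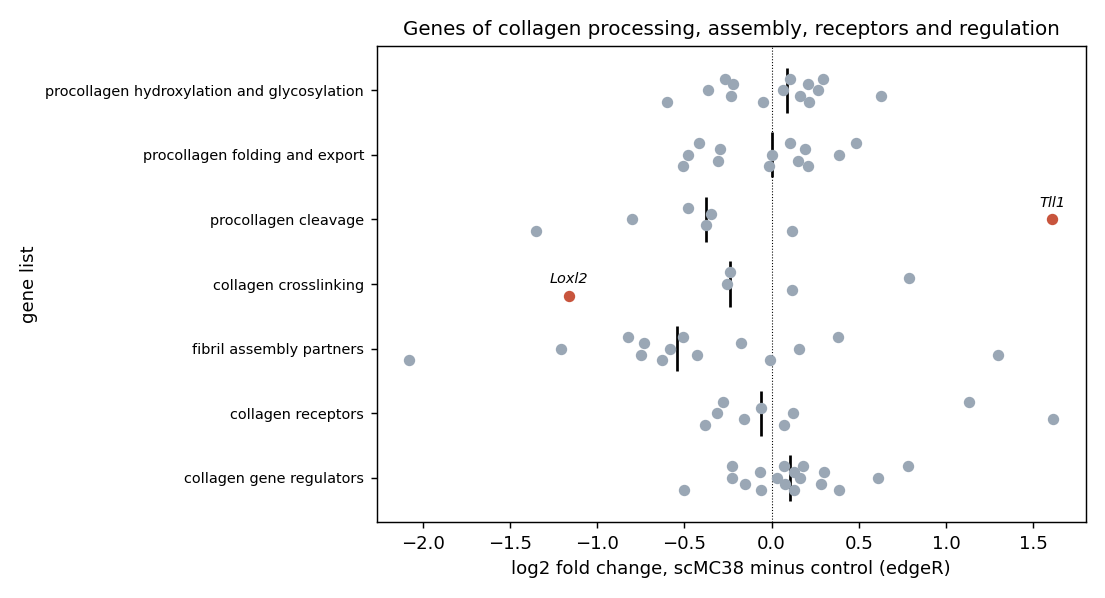
Log2 fold change of scMC38 minus control for the tested genes of 7 lists on collagen processing, assembly, receptors and regulation. Coloured points passed an adjusted p of 0.05 and black bars are list medians. Loxl2 (-1.16) and Tll1 (1.61) are the genes that passed.

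Markers of the cells that make collagen were examined beside Col3a1. Of 14 fibro-adipogenic progenitor markers 12 were negative (median -0.33), and Smoc2, a secreted matrix protein, was called lower (-0.70, SE 0.13, edgeR adjusted p = 0.0479). Their summed level was 1995 to 2756 CPM in controls and 2764, 1796, 2101 and 1642 CPM in scMC38 1 to 4. The groups overlapped, with scMC38 1 just above the highest control. Most of the sum is Gsn and Dcn. All 4 scMC38 libraries were below every control for 3 markers (Lum, Mfap5 and Smoc2) and above for 0. Over all tested genes 6.45% were below and 6.82% above in this way. Of 10 tendon markers 9 were negative and 0 called (median -0.72), with a summed level of 206 to 559 CPM in controls and 80.2 to 356 CPM in scMC38. Most of this sum is Fmod and Thbs4. For 4 tendon markers (Tnmd, Kera, Chodl and Ptx4) all 4 scMC38 libraries were below every control, and for 0 above. Lox (0.79) and Ly6a of the first list and Comp (1.298) of the second had positive values and did not pass. Ly6a ranged from 37.0 to 54.5 CPM in controls and from 43.9 to 61.2 CPM in scMC38. Lox, Dpt, Dcn and Lum of the first list and Comp, Thbs4, Kera, Fmod and Scx of the second are also in the lists of collagen processing above. None of these markers was at 0 in all controls, and their part in the Col3a1 and Col5a3 values was not tested. Smooth muscle and pericyte (median -0.51), endothelial (-0.12) and muscle fibre (-0.07) markers had 0 called. Muscle fibre markers summed to 114120 to 166339 CPM per library. They mark fast skeletal muscle in general and do not tell quadriceps from other muscles.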

How the data were processed

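Per the labels, total RNA of quadriceps was isolated with a column kit and made into mRNA-seq libraries (Universal Plus mRNA-seq). Per the submitters' processing notes, fastp 1.0.1, FastQC 0.12.1, MultiQC 1.30, Salmon 1.10.3, R 4.4.3 and GRCm39 were used, with no roles given. For the annotation, the summing of transcripts to genes and the strand setting, the sources used here give no details. Values deposited by the authors are estimated counts per gene, unscaled. Of nonzero values 49.3% carry a fraction.

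Columns were matched by library name. Of 35667 rows, 144 without a symbol (at most 0.00403% of a library) were left out, repeated symbols (26) were summed and counts rounded. Testing used edgeR 4.0.16 in R 4.3.3 (filterByExpr, minimum count 10, minimum total 15; TMM; robust quasi-likelihood F test), with no covariate. Standard errors are those implied by the F statistic. The common biological coefficient of variation was 27.3%. Log2 CPM carries a prior count of 2. The fit was tested on simulated data. Within groups, all pairs of libraries differed beyond counting noise (chi-square per degree of freedom from 63.2 to 480), so each counts as 1 replicate. DESeq2 1.42.0 and limma 3.58.1 (voom) were alternatives, besides other scalings and filters, libraries left out and a replicate block.

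Members and gene lists, including the 11 cell type marker lists, were chosen with earlier results of these data known. Named by rule were all members, called genes of each list (up to 4, otherwise the 2 with the smallest p) and the 3 genes most like Col3a1 and Col1a1. Per-library values were given for called, separated and marker members and Col1a2. Those of the other members and of non-members, and the genes called without scMC38 1 and 3, were chosen after their values were seen. Counts of genes that overlap in antisense may be mixed.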

Additional observations from a re-analysis of the deposited data

Results flagged for a closer look

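In 7 of 63 groups of 4 libraries, the highest library stood apart from the rest. The gap, as a share of the group's range, was above Dixon's 95% critical value. That value flags about 1 group in 20 by chance only where groups are independent and values normally distributed. These groups are genes of the same 8 libraries on the unlogged CPM scale, so 7 of 63 cannot be set against that rate. In 6 of the 7 flagged groups the highest library was scMC38 3: Col1a1 at 2215 CPM (next 134), Col1a2 at 1329 (next 142), Col11a2 at 69.7 (next 6.63), Col11a1 at 34.8 (next 5.79), Col8a1 at 7.09 (next 2.75) and Col13a1 at 4.22 (next 0.759). The seventh was Col17a1 in control 4, at 2.06 CPM (next 0.360).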

How the results depend on the processing

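The number of calls depended on the tool and on the libraries. Over all genes edgeR called 170, but 267 with total counts only, 112 with no filter beyond 10 counts, 1 with the replicate block, 64 without scMC38 1 and 3, 0 without control 1 and 2 (1605 at an unadjusted p under 0.05), and 2 to 99 with 1 library left out. DESeq2 called 1426. Calls among the collagen genes (2) were 5 by DESeq2 (Col2a1, Col20a1 and Col28a1 besides). DESeq2 gave no adjusted p for Col1a1, Col1a2, Col11a2 and Col13a1. There were 0 calls with the block, without scMC38 1 and 3 or without control 1 and 2, and 0 to 2 with 1 library left out. An unadjusted p under 0.05 was seen for 10 members with the block, 19 without scMC38 1 and 3 and 6 without control 1 and 2. Over all genes it was seen for 2004 of 14112, 2700 of 14368 and 1605 of 14737. Calls among pathway genes (2) were 9 by DESeq2, 0 with the block, 7 without scMC38 1 and 3, 0 without control 1 and 2, and 0 to 1 with 1 library left out. With 80.9% of calls higher by total counts against 61.2% by TMM, that scaling moved the median of all genes by 0.11.

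The members' median of -0.42 was -1.04 without scMC38 1 and 3 and lay between -0.79 and -0.19 with 1 library left out. Of 29 tested members 18 kept their sign in every alternative that tested them: 14 in all 18, and Col2a1, Col9a1, Col26a1 and Col28a1 in 17, since the filter of 1 CPM left them out. Signs reversed without scMC38 1 and 3 for Col1a1 (-2.11), Col1a2 (-2), Col11a1 (-2.35), Col11a2 (-0.94), Col9a2 (-1.88), Col27a1 (-0.75), Col13a1 (-1.16) and Col17a1 (-0.080). With limma-voom Col1a1 (-0.28), Col1a2 (-0.44) and Col13a1 (-0.027) reversed, and with the replicate block the same 3 (-0.38, -0.46 and -0.14). Without control 1 and 2 Col19a1 (-0.20) and Col17a1 (-0.71) did. With 1 library left out, values ran from -1.27 to 2.23 for Col1a1, -1.27 to 1.41 for Col1a2, -0.22 to 2.52 for Col11a1 and -0.86 to 0.89 for Col13a1, all 4 lowest and negative only without scMC38 3. They ran from -0.53 to 0.021 for Col7a1 (positive only without control 4), -0.53 to 0.018 for Col22a1 (positive only without control 3) and -0.27 to 1.304 for Col17a1 (highest without control 4). The cause was not tested.

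The replicate numbers did not pair the libraries: same-numbered deviations from the group means correlated between -0.28 and -0.0058, and no library correlated best with its own number. Depth limits the members with the fewest counts, such as Col25a1 (1 to 47 counts per library) and Col9a3 (1 to 192).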
